A study of Mus musculus with 8 samples.

Results

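Bone-marrow-derived dendritic cells that carry RelB-DBDB and lack the type I interferon receptor (IFNAR) were followed through 8 h of CpG. The 4 libraries of genotype IFNAR;RelB-DBDB were used, of 8 in the series, and the CpG 8 h library was set against the control library with 1 h and 3 h as the course between. The other 4 libraries, of genotype RelB-DBDB with the receptor intact, show where the course differed, and they also enter the limma fit behind each call of an 8 h effect. All 8 came from C57BL/6 mice, and the cells were grown from bone marrow in GM-CSF (20 ng/ml) and IL-4 (10 ng/ml). CpG was ODN 1668 at 0.1 µM for 1, 3 or 8 h. The only control of each genotype was labelled 1 h, so what 3 h or 8 h in culture alone would do cannot be told apart from CpG at those times. The series asks how RelB, an NF-κB subunit, holds back inflammatory genes. Since RelB-DBDB is common to all 8 libraries, no value here compares it with normal RelB. Its alterations are named in the labels and not described there, and neither is the extent of the deletion in the receptor.

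CpG oligonucleotides carry unmethylated CG pairs and are sensed in endosomes by TLR9. TLR9 signals through the adaptor MyD88, which activates NF-κB and MAP kinases and, through interferon regulatory factors, can switch on the gene for interferon-β. Secreted type I interferon then acts back on the same cells through IFNAR and the factors below it and raises the interferon-stimulated genes. Cells without IFNAR lack that second wave, so what remains is the part of the response that does not pass through the receptor.

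Reads numbered 11977778, 11779181, 5492066 and 3711818 in the IFNAR;RelB-DBDB libraries (control, 1, 3 and 8 h) and 6159951 to 37221530 in those of RelB-DBDB. A count of 0 allowed up to 0.250, 0.255, 0.546 and 0.808 CPM (3 reads) in the 4 IFNAR;RelB-DBDB libraries, so low genes were measured least well at 8 h. CPM (reads scaled to 1 library total for all) takes no account of gene length. Where 4 levels stand in a row, they are those of control, 1 h, 3 h and 8 h in that order. Each genotype and time had 1 library, and no label names separate cultures, so no p-value here measures the spread between repeated cultures. Ratios between single libraries carry exact 95% intervals of 2 Poisson counts, which cover counting error only. A change is log2 of (CPM + 1) in the treated library minus that in control, and a gene counted as 2-fold higher or lower from 1 or -1 onward. "Rose" and "fell" are kept for genes whose 8 h effect, fitted in limma over both genotypes, had a Benjamini-Hochberg adjusted p under 0.05. That effect was called higher for 801 of the 12297 genes tested (6.51%) and lower for 1853 (15.1%), a split that became 1227 higher and 1107 lower when libraries were scaled by median ratios.

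Ifnar1, which encodes a chain of the receptor (chromosome 16, 91485238 to 91507441 of mm10, plus strand), stood at 86.3, 102, 56.1 and 68.2 CPM (control, 1, 3 and 8 h). In RelB-DBDB it stood at 127, 123, 102 and 125 CPM. Transcript was therefore read in all 4 libraries of the receptor-deficient genotype, at a lower level than in RelB-DBDB at each time. Counts over a whole gene do not show whether the deleted part is among them. Ifnar2, the other chain, was level at 43.4 CPM in control and 41.2 CPM at 8 h. Relb stood at 121, 115, 206 and 197 CPM, higher at the later times, and was not called (adjusted p = 0.59 by limma). Tlr9 stood at 80.5, 79.3, 57.2 and 52.0 CPM (adjusted p = 0.62). Among cell type markers, the summed level of 10 dendritic cell genes stayed between 11680 and 13130 CPM, and Itgax, the gene for CD11c, between 857 and 1083 CPM. The other sets were lower: 9 macrophage genes summed to 555 to 719 CPM, 10 T and NK cell genes to 332 to 431 CPM and 10 neutrophil genes to 197 to 272 CPM, and stromal and erythroid genes were under 9 CPM. In bulk RNA, fewer cells of a type and less of an RNA per cell cannot be told apart.

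Few genes differed from control at 1 h, and the number grew with each later time. At 1 h, 65 genes were at least 2-fold higher than control (0.529% of those tested) and 15 were lower (0.122%). At 3 h the counts were 352 higher (2.86%) and 518 lower (4.21%), and at 8 h they were 522 higher (4.24%) and 766 lower (6.23%). These shares are the background for the counts of each gene list below at the same time. The balance of higher and lower depended on scaling: the median gene stood 0.12 below control on the log2 scale at 8 h and 0.17 below it at 3 h, and with median-ratio scaling those shifts were near 0 and the counts were 628 higher and 588 lower at 8 h, and 468 and 312 at 3 h. TMM scaling gave 591 and 631 at 8 h and 443 and 351 at 3 h, and a pseudocount of 5 CPM gave 316 and 330 at 8 h and 227 and 173 at 3 h. At 1 h, thinning all libraries to 3711818 reads moved the counts to 137 higher and 126 lower. All 522 genes higher at 8 h, and 738 of the 766 lower, had counting intervals that left out a ratio of 1. Of the 522, 427 (81.8%) were also called higher by limma, and of the 766, 640 (83.6%) were called lower. A change of at least 4-fold was seen in 120 genes upward (0.976%) and 95 downward (0.773%).

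Most genes first passed 2-fold at 3 h or 8 h, in either direction. Of 649 genes higher at any time, 41 passed 2-fold at 1 h and were still past it at 8 h, while 24 had returned. Another 204 passed it first at 3 h and held and 103 did not hold, and 277 passed it first at 8 h. Of 1032 genes lower at any time, 6 passed 2-fold at 1 h and held, 9 did not hold, 256 passed it at 3 h and held, 257 did not hold, and 504 passed it first at 8 h. The highest level fell at 8 h in 421 of the 649, at 3 h in 199 and at 1 h in 29. No gene was counted in both directions.

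**Figure D1:**
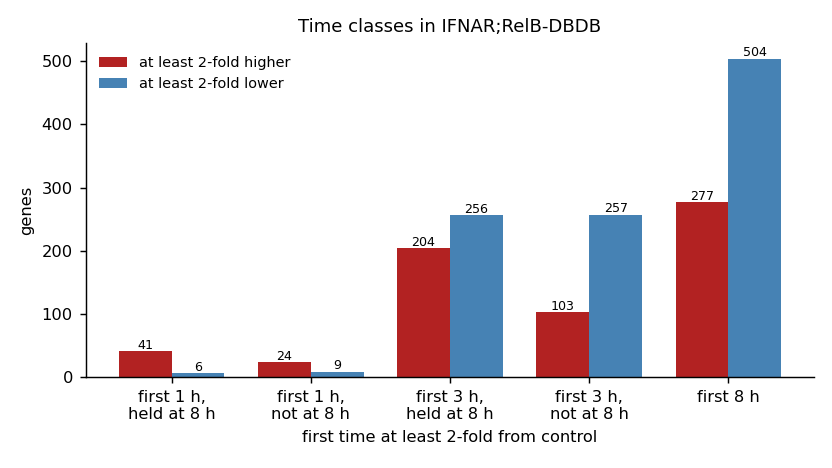
Number of genes in each time class in IFNAR;RelB-DBDB, with the class on the x axis and the gene count on the y axis, red bars for genes at least 2-fold higher and blue for genes at least 2-fold lower. Among higher genes 277 first passed 2-fold at 8 h, and among lower genes 504 did.

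The inflammatory cytokines were among the earliest and largest changes. Tnf, the gene for tumour necrosis factor (chromosome 17, 35199381 to 35202007, minus strand), stood at 10.6, 408, 432 and 374 CPM (control, 1, 3 and 8 h). It reached its full level within the first hour and held it, 35.3-fold above control at 8 h (95% interval 29.4 to 42.7, adjusted p = 2.5e-05 by limma). Il12b, which encodes the subunit shared by interleukin-12 and interleukin-23, stood at 15.0, 115, 672 and 1124 CPM and was still climbing at the last time. Its 8 h level was 74.8-fold that of control (64.4 to 87.3, adjusted p = 0.00014). Il1a and Il1b encode the 2 forms of interleukin-1. Il1a stood at 2.67, 58.7, 407 and 564 CPM and rose 211-fold by 8 h (149 to 309, adjusted p = 0.00073). Il1b stood at 7.76, 79.1, 843 and 955 CPM and rose 123-fold (100.1 to 153, adjusted p = 2.5e-05). Most of both gains came between 1 h and 3 h. Il6 stood at 12.4, 102, 243 and 250.3 CPM, a plateau from 3 h, and rose 20.1-fold (16.9 to 24.1, adjusted p = 0.00054).

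Of 26 inflammatory cytokine genes tested, 17 were at least 2-fold higher at 8 h and none lower, with a median log2 change of 1.81 beside -0.12 over all genes. The counts were 10 higher at 1 h and 18 at 3 h, with none lower at either time. Limma also called 17 higher and none lower at 8 h. Il23a, which encodes the partner of the Il12b product in interleukin-23, was transient, with 0 reads in control and then 7.05, 6.37 and 0.269 CPM, the last from 1 read. Its limma adjusted p at 8 h was 0.14. Il12a, which encodes the other partner and gives interleukin-12, was read at 0, 0.340, 1.09 and 1.89 CPM, close to the limit of the counts. It rose (adjusted p = 0.0077 by limma, a call that ended when either genotype's control library was left out). Inhba, a subunit of activin, rose from 6.68 CPM through 13.0 and 66.5 to 126 CPM (adjusted p = 0.00016). Tnfsf15, a TNF family ligand for T cells, stood at 15.3, 44.8, 149 and 106 CPM and rose (adjusted p = 0.0026). Csf3, which encodes the granulocyte growth factor G-CSF, went from 0 reads to 8.89 CPM and rose (adjusted p = 0.0029).

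**Figure D2:**
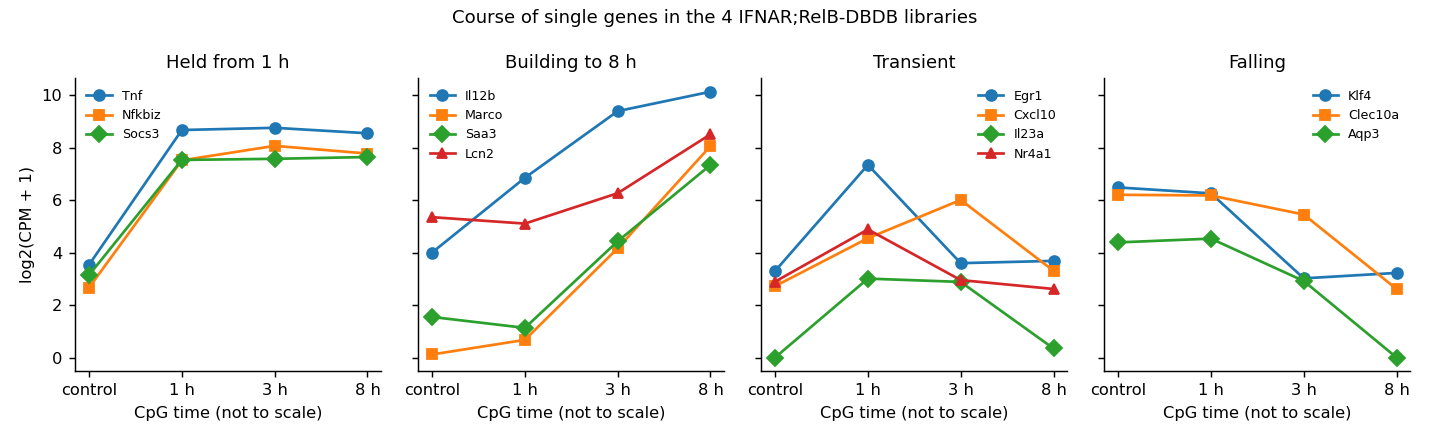
Level of 14 genes in the 4 IFNAR;RelB-DBDB libraries, with control, 1 h, 3 h and 8 h along the x axis (not to scale) and log2(CPM + 1) on the y axis, 1 line a gene and 1 library a point. Tnf and Socs3 are near their plateau by 1 h, and Nfkbiz is already high at 1 h and highest at 3 h. Il12b, Marco, Saa3 and Lcn2 are highest at 8 h, Egr1 and Nr4a1 peak at 1 h, and Klf4, Clec10a and Aqp3 are low at 8 h.

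Chemokines that draw neutrophils climbed through the whole course. Cxcl2 (chromosome 5, 90903871 to 90905938, plus strand) stood at 1.59, 39.6, 161 and 183 CPM (control, 1, 3 and 8 h), and rose 115-fold (73.2 to 192, adjusted p = 8.9e-05 by limma). Cxcl3 stood at 2.00, 5.01, 95.8 and 371 CPM, a later climb to a higher level, and rose 185-fold (124 to 290.2, adjusted p = 8.9e-05). Cxcl1 stood at 0.167, 8.07, 14.7 and 22.1 CPM and Cxcl5 at 0.167, 0.255, 3.10 and 42.6 CPM. Both rose (adjusted p = 0.002 and 0.0027), from 2 reads in the control library, so their ratios of 132 (35.5 to 1111) and 255 (69.4 to 2123) are loosely fixed. These genes lie in 1 cluster and resemble each other, so short reads may have been shared between them.

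The chemokines for monocytes and T cells differed in their timing. Ccl3 stood at 15.9, 65.4, 574 and 550.4 CPM and Ccl4 at 9.10, 28.2, 225 and 201 CPM, both flat from 3 h. Each rose, by 34.5-fold (29.7 to 40.2, adjusted p = 0.00011 by limma) and 22.1-fold (18.0 to 27.2, adjusted p = 0.00032). Ccl2, a monocyte attractant, reached 31.9 CPM at 3 h and 89.2 CPM at 8 h from 8.43 CPM and rose (adjusted p = 0.0056). Ccl5 rose late, from 764 and 765 CPM in control and at 1 h to 1239 and 2705 CPM (adjusted p = 0.00036). Ccl22, a ligand of CCR4 that these cells already made in quantity, went from 8283 to 24839 CPM and rose 3.00-fold (2.97 to 3.03, adjusted p = 0.0019, and 0.059 with no filter). Ccl17, the other CCR4 ligand, was level at 1755 CPM in control and 1857 CPM at 8 h. Ccl24, an eosinophil attractant, was the only one of the 17 tested that was at least 2-fold lower: it fell from 1235 to 537 CPM (adjusted p = 0.022, up to 0.14 with TMM scaling, median-ratio scaling or no filter). In all, 12 of the 17 were at least 2-fold higher, and the median change was 1.99.

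The genes that feed back on NF-κB came up with the first cytokines. Nfkbiz, which encodes IκBζ, a nuclear cofactor for secondary cytokine genes, stood at 5.34, 182, 268 and 218 CPM (control, 1, 3 and 8 h). It rose 40.9-fold (31.7 to 53.6, adjusted p = 0.00014 by limma). Nfkbia, the gene for the inhibitor IκBα, stood at 326, 968, 889 and 809 CPM, highest at 1 h, and rose 2.48-fold by 8 h (2.37 to 2.61, adjusted p = 0.0025). Tnfaip3, which encodes the deubiquitinase A20, had the same shape at 156, 701, 589.8 and 422 CPM and rose (adjusted p = 0.0041). Socs3, an inhibitor of STAT3 signalling, stood at 7.85, 184, 189.9 and 199 CPM and rose 25.4-fold (20.4 to 31.8, adjusted p = 0.00023). Irak3, an inhibitory kinase relative below MyD88, came later: it was flat at 15.2 and 15.5 CPM and rose to 29.7 and 81.4 CPM (adjusted p = 0.00036). Of 18 inhibitors and feedback genes tested, 9 were at least 2-fold higher at 8 h and none lower, with a median change of 0.95.

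The subunits of NF-κB changed less than its inhibitors. Nfkb2 stood at 265, 284, 518 and 513 CPM and rose (adjusted p = 0.045 by limma, up to 0.092 in a fit with no filter), Nfkb1 at 425, 470.2, 744 and 669 CPM (adjusted p = 0.28), and Rela at 141, 156, 160.4 and 141 CPM (adjusted p = 0.94). Of 15 subunits and kinases tested, 3 were at least 2-fold higher and none lower. Over all genes the shares were 4.24% higher and 6.23% lower. Of the 23 genes on the path from TLR9, 1 was higher and 1 lower, near those shares. Map3k8, the kinase TPL2 that links NF-κB to ERK, was the higher one at 29.9, 82.6, 78.1 and 66.5 CPM and rose (adjusted p = 0.018). The lower one was Irf7, which is described with the interferon-stimulated genes.

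A first wave of immediate-early genes had passed by 3 h. Egr1, a zinc finger factor downstream of ERK, stood at 8.85, 162, 11.1 and 11.9 CPM (control, 1, 3 and 8 h). Nr4a1, an orphan nuclear receptor, stood at 6.43, 28.5, 6.74 and 5.12 CPM, and Ppp1r15a, a stress phosphatase subunit, at 53.1, 174, 83.2 and 73.8 CPM. Zfp36, which encodes the mRNA decay factor TTP, stood at 143, 459, 161 and 136 CPM. For all of them only the 1 h library stood clear of the rest, and their 8 h effects were not called (limma adjusted p = 0.94, 0.35, 0.31 and 0.42). Of 25 immediate-early factors tested, 7 were at least 2-fold higher at 1 h, 2 at 3 h and 2 at 8 h. Dusp1, a MAP kinase phosphatase, had a second high at 8 h: 50.4, 134, 64.6 and 116 CPM (adjusted p = 0.015). A later transient set peaked at 3 h. Serpinb2, a plasminogen activator inhibitor, stood at 5.26, 5.77, 23.9 and 10.8 CPM and rose by 8 h (adjusted p = 0.027, up to 0.061 with 5 CPM as pseudocount or no filter), and Hmox1, the heme oxygenase gene, stood at 956, 860.0, 2075 and 1031 CPM (adjusted p = 0.90). The other large 3 h transients were Tmem200b, D8Ertd82e, Oaf, Gm8221 and Dennd3. A smaller one at 1 h was 4930520O04Rik.

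At 1 h the lowest 3 genes were Yam1, Lars2 and Gm23935, and their levels swung from library to library. Yam1 stood at 14085, 1881, 17486 and 4056 CPM and Lars2 at 529.9, 114, 501 and 267 CPM. Gm23935 stood at 305, 33.4, 129.8 and 152 CPM. The low 1 h value was followed by a return at 3 h in the first 2, and none had a called 8 h effect (limma adjusted p = 0.085, 0.10 and 0.11).

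Some uptake receptors and acute-phase proteins were among the genes higher at 8 h. As a list the receptors went both ways: of 24 lectin, scavenger and Fc receptor genes, 9 were at least 2-fold higher and 7 lower. Marco, a scavenger receptor for bacteria and particles (chromosome 1, 120474538 to 120505024, minus strand), stood at 0.0835 (1 read), 0.594, 16.9 and 266 CPM (control, 1, 3 and 8 h). It had the largest log2 change at 8 h, 7.95, and rose (adjusted p = 2.5e-05 by limma), while the ratio rests on that 1 read and ran from 571 to 126180.0 in its interval. Clec4e, the gene for the lectin Mincle, stood at 19.1, 58.7, 275 and 244 CPM and rose (adjusted p = 0.00036). The formyl peptide receptor genes were flat at 1 h. Fpr1 went from 7.01 to 116 CPM by 8 h and Fpr2 from 5.76 to 79.7, and both rose (adjusted p = 0.00036 and 0.00049). Saa3, an acute-phase apolipoprotein, stood at 1.92, 1.19, 20.6 and 161 CPM, and Lcn2, the siderophore-binding lipocalin, at 39.8, 33.4, 75.9 and 364 CPM. Both were no higher than control at 1 h and both rose, by 84.0-fold (55.5 to 134, adjusted p = 0.00023) and 9.14-fold (8.23 to 10.2, adjusted p = 0.00014). Hp, the haptoglobin gene, went from 7.35 to 127 CPM and rose (adjusted p = 0.00078). Of 13 acute-phase, complement and granule genes tested, 6 were at least 2-fold higher and none lower.

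Among genes first past 2-fold at 8 h, the largest were Gm14446, Siglece, Lcn2, Osbpl3, 1100001G20Rik, Ms4a6c, Ccl1 and Emr1. Emr1, which encodes the macrophage marker F4/80, stood at 53.2, 63.2, 85.4 and 311 CPM and rose 5.86-fold (5.31 to 6.46, adjusted p = 0.0025 by limma), and Siglece, an inhibitory sialic acid receptor, went from 0.751 to 17.2 CPM and rose (adjusted p = 0.0033). The other macrophage markers did not follow: none of the 9 tested was at least 2-fold higher at 8 h and 2 were lower. Of these 8 late genes, 1100001G20Rik alone was not called by limma.

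Nos2, inducible nitric oxide synthase, stood at 139.6, 140.1, 407 and 421 CPM and rose 3.02-fold (2.81 to 3.23, adjusted p = 0.0024 by limma). Irg1, whose enzyme makes itaconate, stood at 80.9, 159, 1025 and 1012 CPM and rose 12.5-fold (11.6 to 13.4, adjusted p = 0.0009). Both had reached their level by 3 h. Sod2, mitochondrial superoxide dismutase, was later at 75.5, 78.6, 223 and 474 CPM and rose (adjusted p = 0.00023). Arg1, which uses the same arginine as Nos2, went the other way at 1607, 1658, 954 and 402 CPM and fell 4.0-fold (3.79 to 4.21, adjusted p = 0.0007). Of 10 genes for nitric oxide, arginine and itaconate, 6 were at least 2-fold higher and 1, Arg1, was lower. Among iron and antioxidant genes, Fth1, the ferritin heavy chain, went from 2271 to 7398 CPM, Prdx1, a peroxiredoxin, from 361 to 1696 CPM, and Slc11a1, the phagosomal metal transporter, from 18.0 to 119 CPM. All 3 rose (adjusted p = 0.00055, 0.00036 and 0.00041). In the list of 15, 8 were at least 2-fold higher at 3 h and 5 at 8 h, with none lower.

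Prostaglandin and leukotriene genes split. Ptgs2, the inducible cyclooxygenase, stood at 2.50, 15.0, 141 and 144 CPM and rose 57.5-fold (39.8 to 86.1, adjusted p = 0.00078 by limma), and Ptges, the prostaglandin E synthase, went from 1.34 to 12.9 CPM and rose (adjusted p = 0.0014). The constitutive cyclooxygenase Ptgs1 stood at 159.9, 176, 73.6 and 43.6 CPM and fell 3.66-fold (3.12 to 4.33, adjusted p = 0.0017). Tbxas1, thromboxane synthase, fell from 199.9 to 55.8 CPM, Alox15, a lipoxygenase, from 93.5 to 24.5 CPM, and Ltb4r1, the leukotriene B4 receptor, from 76.1 to 12.9 CPM (adjusted p = 0.00035, 0.0036 and 0.0051). In the list of 18 tested, 3 were at least 2-fold higher and 6 lower.

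Of 20 maturation genes of dendritic cells, 1 was at least 2-fold higher at 1 h, 8 were at 3 h and 10 were at 8 h, with none lower. Cd40, the receptor for T cell help, stood at 61.4, 90.2, 487 and 451 CPM and rose 7.35-fold (6.73 to 8.03, adjusted p = 0.00024 by limma). Cd80 stood at 55.0, 69.7, 197 and 186 CPM and Cd86 at 190.3, 220.5, 344 and 335 CPM. These costimulatory ligands both rose, Cd80 by 3.38-fold (3.04 to 3.77, adjusted p = 0.0012 by limma) and Cd86 by 1.76-fold (1.64 to 1.89, adjusted p = 0.019). The call of Cd86 ended when either genotype's control library was left out. Fscn1, the actin bundler of dendrites, went from 230.0 to 1209.6 CPM and Marcksl1 from 37.7 to 337 CPM, and both rose (adjusted p = 0.0011 and 0.00014). Ccr7, the lymph node homing receptor, was already high at 814, 1065, 731 and 1350.0 CPM and was not called (adjusted p = 0.11). Of 14 MHC class II genes tested, 1 was at least 2-fold higher and 1, H2-Ob, was lower. At 8 h 10 of the 14 stood below control, beside 7536 of the 12297 genes tested. Limma called 6 lower and 1 higher, beside 15.1% lower over all genes. Median-ratio scaling gave 5 lower, and a fit without the RelB-DBDB control gave none. H2-Ab1 stood at 1957, 1755, 1848 and 1802 CPM. H2-Ob, part of a modulator of peptide loading, fell from 34.7 to 13.2 CPM (adjusted p = 0.0061). None of 21 class I presentation genes passed 2-fold in either direction.

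Genes that answer to IL-4, which was in the culture, were the list with the largest share lower at 8 h. Of 19 tested, 11 were at least 2-fold lower and 1, Ccl22, was higher, with a median of -1.17 beside -0.12 over all genes. Limma called 11 lower and 1 higher. Clec10a, a galactose-binding lectin of myeloid cells, stood at 72.8, 71.4, 42.8 and 5.12 CPM (control, 1, 3 and 8 h) and fell 14.2-fold (9.05 to 23.7, adjusted p = 0.00013). Its neighbour Mgl2 stood at 2019, 1939, 1536 and 436 CPM and fell 4.63-fold (4.40 to 4.87, adjusted p = 0.00023), with the caution that the 2 genes are close in sequence. Mrc1, the mannose receptor gene, fell from 34.6 to 4.85 CPM, Retnla, a resistin-like protein, from 912 to 404 CPM, and Tgm2, transglutaminase, from 1821 to 722 CPM (adjusted p = 0.00026, 0.0024 and 0.0042). All 5 were close to control at 1 h, and, Mrc1 aside, most of each fall came after 3 h. At 1 h, 1 gene of the list, Egr2, was at least 2-fold higher and none lower, and at 3 h 1, Klf4, was lower.

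Lineage transcription factors moved both ways. Klf4, a factor of monocytes, stood at 88.6, 75.6, 7.10 and 8.35 CPM, at its low by 3 h, and fell 10.6-fold (7.43 to 15.7, adjusted p = 0.00018 by limma). Klf2 stood at 79.0, 45.6, 16.9 and 16.4 CPM and fell (adjusted p = 0.0011). Batf, an AP-1 partner in dendritic cells, went up instead, from 14.9 to 53.6 CPM, and rose (adjusted p = 0.0055). Of 25 lineage factors tested, 5 were at least 2-fold higher and 4 lower at 3 h, and 3 were higher and 7 lower at 8 h, where the median was 0.19 and limma called 8 higher and 7 lower. The other genes lowest at 3 h were Gm8113, Pou4f1, Tmem86a and Ier5l, between -2.53 and -2.72 on the log2 scale.

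Of the genes with the largest falls at 8 h, some ended at or near the limit of the counts. Aqp3, a water and glycerol channel (chromosome 4, 41092722 to 41098183, minus strand), went from 20.0, 22.2 and 6.55 CPM to 0 reads at 8 h, at least 24.7-fold lower against the limit of 3 reads, and fell (adjusted p = 0.00014 by limma). Cyp2s1, a cytochrome P450, went from 31.2 to 0.539 CPM (2 reads) and Emp1, an epithelial membrane protein, from 54.8 to 2.42 CPM, and both fell (adjusted p = 0.00042 and 0.00035). Mmp19, a metalloproteinase, fell from 242 to 21.8 CPM, Ramp1, a receptor partner for the neuropeptide CGRP, from 56.2 to 4.85 CPM, and Car4, a carbonic anhydrase, from 91.8 to 9.97 CPM (adjusted p = 0.0019, 0.00026 and 0.00067). Matk, Tmem151a, Foxred2, Sept3, Mical2 and Selenbp1 were also among the 15 lowest, with Clec10a and Klf4. Ccr2, the receptor for Ccl2, fell from 317 to 103 CPM (adjusted p = 0.0026).

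**Figure D3:**
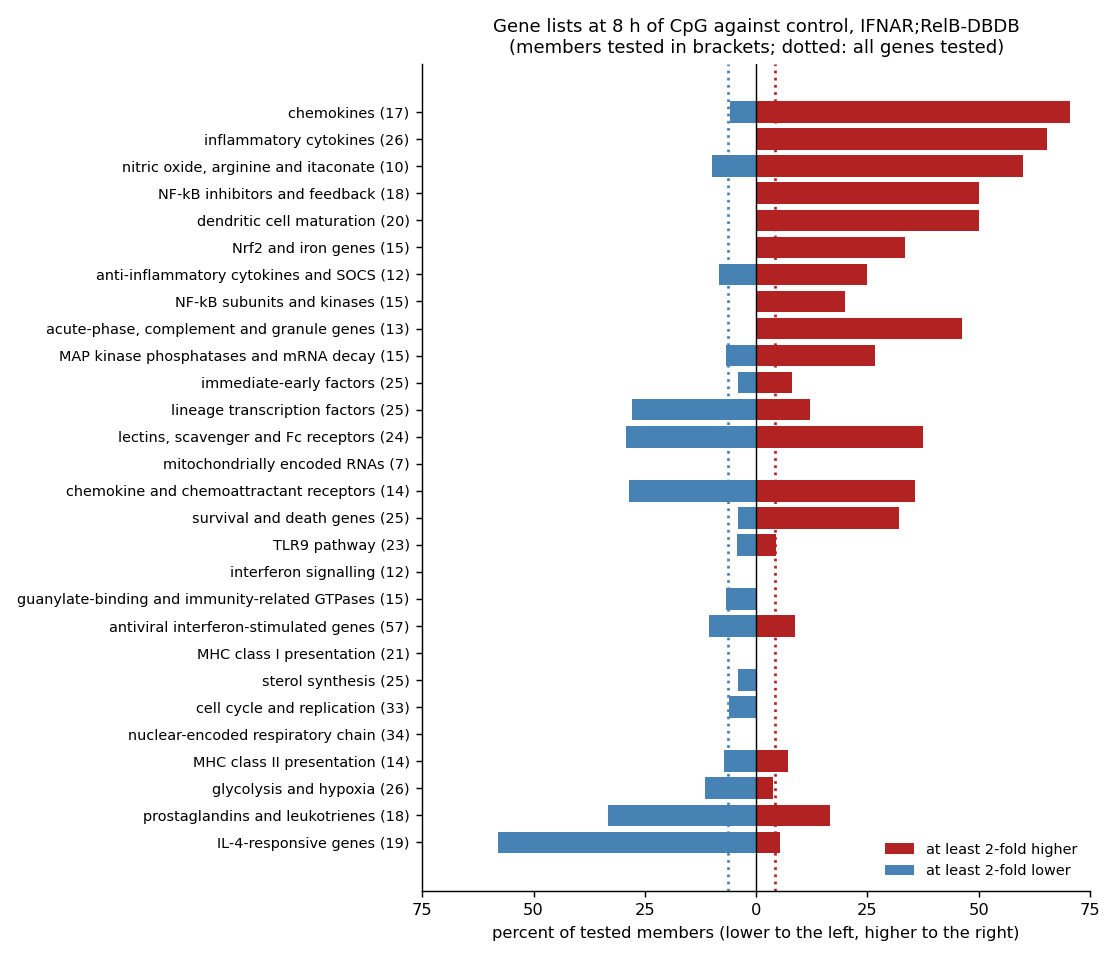
Share of the tested members of each gene list at least 2-fold higher (red, to the right) or lower (blue, to the left) at 8 h against control in IFNAR;RelB-DBDB, in percent on the x axis, 1 list a row ordered by its median change. Inflammatory cytokines (17 of 26) and chemokines (12 of 17) reach farthest to the right and IL-4-responsive genes (11 of 19 lower) farthest to the left, beside dotted lines at the shares over all genes, 4.24% and 6.23%.

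Few metabolic and cell cycle genes passed 2-fold, while limma called many of the metabolic ones lower. Of 26 glycolysis and hypoxia genes 1 was at least 2-fold higher and 3 lower, with a median of -0.49, and of 34 nuclear-encoded genes of the respiratory chain none passed 2-fold, with a median of -0.32. In 25 sterol synthesis genes 1 was lower, and in 33 cell cycle genes 2 were lower. Over all genes the shares at 8 h were 4.24% higher and 6.23% lower, so few members past 2-fold is not particular to these lists. Limma called 13 of the glycolysis genes lower and 5 higher, 9 of the respiratory chain lower and none higher, 7 of sterol synthesis lower and 1 higher, and 3 of the cell cycle lower and 1 higher, beside 15.1% lower over all genes. In the respiratory chain 33 of 34 stood below control at 8 h, beside 7536 of the 12297 genes tested. In RelB-DBDB, which the fit also takes in, the median of this list was -1.02, beside -0.36 over all genes. With median-ratio scaling the calls lower were 10, 2, 5 and 2 in the same order. Without the RelB-DBDB control they were 1, 0, 1 and 0, and without 8 h of IFNAR;RelB-DBDB they were 18, 28, 19 and 18. Gapdh stood at 942, 984, 904 and 673 CPM and fell (adjusted p = 0.026 by limma, and 0.069 with no filter). Actb stood at 10592, 10516, 14934 and 17108 CPM and rose (adjusted p = 0.021, and 0.24 with no filter), so neither was a level reference over the course. Mitochondrial RNAs held 2.14% to 2.41% of the reads in all 4 libraries. They held 6.26% in the RelB-DBDB 8 h library.

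Interferon-β mRNA appeared after CpG in the cells without the receptor. Ifnb1 (chromosome 4, 88522025 to 88522774, minus strand) had 0 reads in control and stood at 0.170, 1.09 and 2.16 CPM after 1, 3 and 8 h, the last from 8 reads. It was at least 8.61-fold higher at 8 h, against a limit of 3 reads in control, and rose (adjusted p = 0.007 by limma, a call that ended when either genotype's control library was left out). In RelB-DBDB it stood at 0, 0, 0.912 and 1.34 CPM. The levels of the genotypes were both low and the late difference between them was not called (unadjusted p = 0.63). The 7 other listed interferon genes in the table did not pass the filter on low values.

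The antiviral interferon-stimulated genes stayed level as a list. Ifit1, whose protein binds foreign RNA ends (chromosome 19, 34640871 to 34650009, plus strand), stood at 7.68, 8.74, 8.19 and 8.35 CPM (control, 1, 3 and 8 h). With the receptor, in RelB-DBDB, it stood at 4.85, 4.55, 131 and 739.9 CPM. The RelB-DBDB values at 3 h and 8 h lie far above all 4 values without the receptor. Rsad2, the antiviral enzyme viperin, stood at 16, 18.6, 13.5 and 5.66 CPM without the receptor and at 10.9, 10.9, 196 and 1226 CPM with it. Mx2, an antiviral GTPase, stood at 1.75, 0.934, 0.728 and 1.35 CPM against 2.19, 2.11, 32.4 and 72.2 CPM. Of 57 such genes tested, 5 were at least 2-fold higher and 6 lower at 8 h in IFNAR;RelB-DBDB, beside backgrounds of 4.24% and 6.23%. Their median change was -0.06 and ranged from -2.81 to 1.91. In RelB-DBDB 53 of the 57 were at least 2-fold higher and none lower, with a median of 3.62, where the background was 6.9% higher (848 genes) and 19.6% lower (2410 genes).

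**Figure D4:**
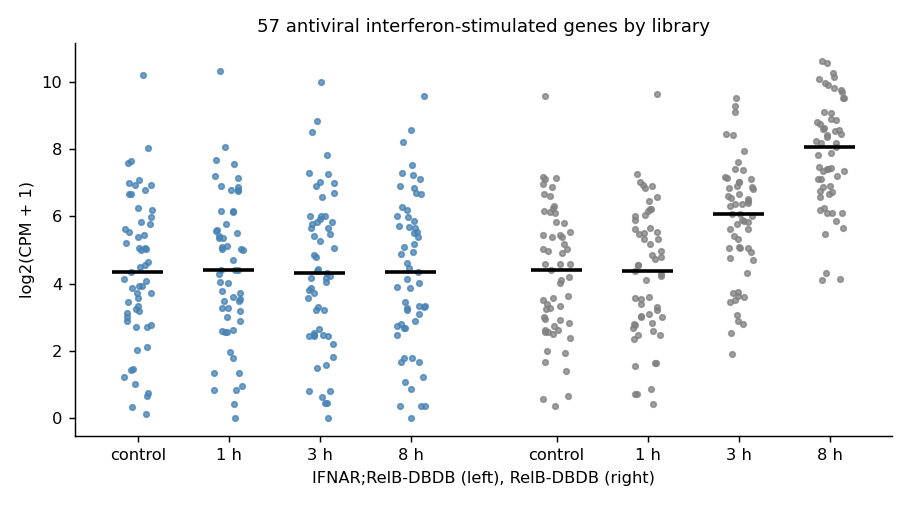
Level of 57 antiviral interferon-stimulated genes in each library, with log2(CPM + 1) on the y axis, 1 point a gene, a black bar at the median, blue for the IFNAR;RelB-DBDB libraries and grey for RelB-DBDB. The medians are 4.36, 4.41, 4.32 and 4.33 without the receptor and 4.40, 4.37, 6.07 and 8.06 with it.

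The difference between the genotypes at 3 h and 8 h, set against that in control and at 1 h, was tested in limma over all 12297 genes, and 0 were called (0.0%), with 874 at an unadjusted p under 0.05 and 0 called by limma-voom. The fit has 2 residual degrees of freedom. It takes the late gap as equal at 3 h and 8 h, so a gap that differs between them adds to the residual spread. Leaving out 1 library of the 8 gave 69 to 72 calls without a control or 1 h library, 688 or 701 without an 8 h library, and 5632 or 5641 without a 3 h library, each with 1 residual degree of freedom. The 4 smallest p-values, none of them called, belonged to Mx2, Irgm2, Xaf1 and Ifit1. Their late differences on the log2 scale were -4.17 (unadjusted p = 1.7e-05), -2.57 (3.3e-05), -3.09 (5.7e-05) and -5.76 (0.00012). The term compares gaps, so a higher level without the receptor in control and at 1 h also makes it negative. Of the 57 antiviral genes, 50 (87.7%) had an unadjusted p under 0.05, all 50 with a negative late difference, beside 7.11% over all genes. Interferon-stimulated genes are known from earlier results of these data to part by genotype, so this count describes them and is not independent support.

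Some genes usually counted as interferon-stimulated went up without the receptor. Helz2, a nuclear receptor coactivator, stood at 100.2, 119, 459 and 379.9 CPM and rose 3.79-fold (3.51 to 4.10, adjusted p = 0.0009 by limma). In RelB-DBDB it stood at 140.1, 153, 732 and 841 CPM. Isg15, a ubiquitin-like protein, stood at 9.10, 10.1, 15.7 and 23.7 CPM and rose, 2.61-fold higher at 8 h (1.94 to 3.48, adjusted p = 0.046, up to 0.10 under other scalings, pseudocount or filter), and in RelB-DBDB it reached 397 CPM. Ms4a4c and Slfn5 were also at least 2-fold higher, at 29.9 CPM from 9.85 CPM and at 56.8 CPM from 24.2 CPM, and rose (adjusted p = 0.01 and 0.041, the latter 0.092 with no filter). For these genes the fit over both genotypes takes in the course of RelB-DBDB as well, so the p-values are not of the receptor-deficient libraries alone. Cxcl10, a T cell chemokine with both NF-κB and interferon input, was transient without the receptor at 5.59, 22.4, 63.4 and 8.89 CPM. In RelB-DBDB it stood at 1.33, 6.66, 72.5 and 66.1 CPM, so the genotypes were near each other at 3 h and apart at 8 h. Its late difference was -3.03 (unadjusted p = 0.0055 by limma), a term that also takes in its higher control and 1 h levels without the receptor. Its 8 h effect was not called (adjusted p = 0.08). Cxcl9, the related chemokine that interferon-γ induces, was held instead at 3.76, 8.74, 45.9 and 38 CPM and rose (adjusted p = 0.0039).

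The guanylate-binding proteins and immunity-related GTPases, which restrict intracellular microbes, differed already in control. All 15 tested were at least 2-fold higher in the IFNAR;RelB-DBDB control than in the RelB-DBDB control, with a median difference of 1.75 on the log2 scale. Over all genes 332 of 12297 were that much higher. Gbp2 stood at 1151, 1211, 1664 and 1851 CPM without the receptor and at 267, 284, 487 and 1831 CPM with it, so the 2 ended level after different starts. At 8 h, none of the 15 was at least 2-fold higher and 1, Iigp1, was lower in IFNAR;RelB-DBDB, with a median of -0.01, and in RelB-DBDB 14 were higher, with a median of 2.41. Ifng, the gene for interferon-γ, a known inducer of these GTPases, stood at 7.68, 9.42, 9.65 and 11.3 CPM without the receptor and at 3.04, 2.27, 0.912 and 0.940 CPM with it. T and NK cell markers also differed in control. Their sum was 397 CPM in the IFNAR;RelB-DBDB control and 261 CPM in the RelB-DBDB control. Cd8a stood at 48.8 and 12.1 CPM. Gzmb, a cytotoxic granule protease that is not in that sum, stood at 120.2 and 30.9 CPM. The NK cell genes Ncr1 and Klrb1c, both below the filter on low values, hardly differed. Ncr1 stood at 0 CPM in both controls and Klrb1c at 0.501 and 0.380 CPM. Other sets differed too: B cell markers summed to 50.8 and 23.1 CPM and eosinophil markers to 30.4 and 12.8 CPM. The macrophage marker sums were near each other and lay slightly the other way, at 719 and 777 CPM. So did those of plasmacytoid dendritic cells, at 107 and 115 CPM. Of that set, Siglech stood at 0.167 and 0 CPM and Klk1 at 0.2505 and 0.0951 CPM, both near the limit of the counts. In RelB-DBDB the T and NK sum stood at 394 CPM at 8 h, a sum that most of its members did not follow. Of the 8 tested there, none was at least 2-fold higher than control and 1 was lower, with a median change of -0.37. The part of any cell type in the difference was not tested. Of 33 cell cycle genes, 16 were also at least 2-fold higher in the IFNAR;RelB-DBDB control.

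**Figure D5:**
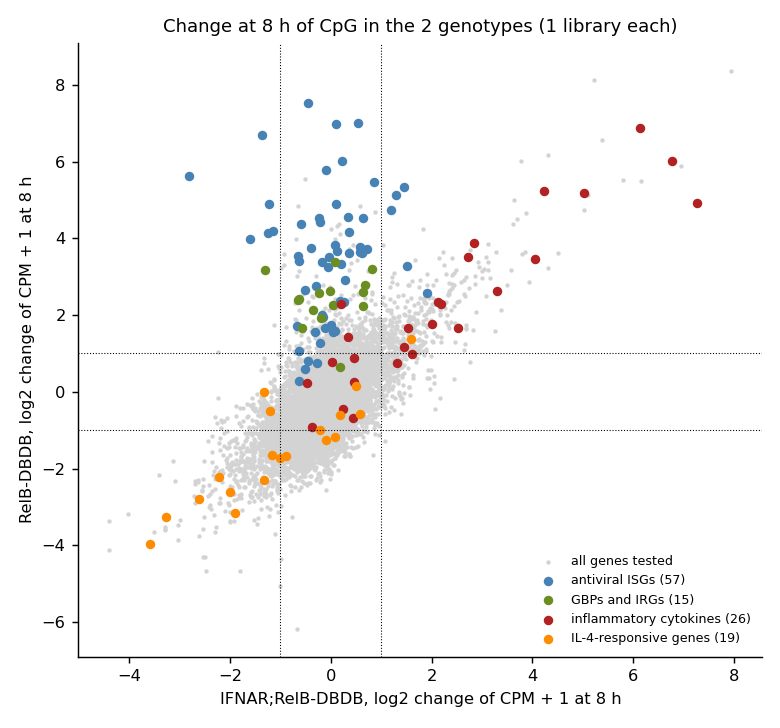
Change of log2(CPM + 1) at 8 h against control in IFNAR;RelB-DBDB (x axis) and RelB-DBDB (y axis), 1 point a gene, with 4 lists coloured, all genes in grey and dotted lines at 2-fold. Antiviral genes lie between -2.81 and 1.91 on the x axis and mostly above the upper line on the y axis, and 17 of the 26 inflammatory cytokines lie past the right-hand line.

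Most genes that changed without the receptor also changed with it. Of the 522 genes at least 2-fold higher at 8 h without the receptor, 350 (67.0%) were also at least 2-fold higher with it, and 28 had the opposite sign. Of the 766 lower, 542 (70.8%) were also lower and 35 had the opposite sign. Over all genes, 6.9% were higher and 19.6% lower at 8 h in RelB-DBDB. The median gene there changed by -0.36, and the overlap was not recounted under other scalings. In RelB-DBDB 36 genes were higher (0.293%) and 16 lower (0.13%) at 1 h, and 524 higher (4.26%) and 604 lower (4.91%) at 3 h. Tnf stood at 8.08, 298, 411 and 326 CPM with the receptor, and Il12b at 7.89, 41.2, 643 and 1045 CPM. Tnf changed by 5.02 without the receptor and 5.17 with it at 8 h, Il12b by 6.13 and 6.88, Clec10a by -3.59 and -3.96, and Klf4 by -3.26 in both. The late difference was -0.26 for Tnf (unadjusted p = 0.20 by limma) and -1.07 for Il12b (unadjusted p = 0.0036). Without the receptor both genes stood above their RelB-DBDB levels at each time. The gap was wider in control and at 1 h than later, so neither negative value is a lower late level. Cxcl1 and Cxcl5 were lower without the receptor in the late phase, with RelB-DBDB at 91.3 and 305 CPM at 8 h against 22.1 and 42.6 CPM, and late differences of -2.02 and -2.81 (unadjusted p = 0.00034 and 0.00023).

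Promoter sequence is shown for 4 genes that parted in their course. The window is the 250 bases before the gene's start, on the gene's strand, from RefSeq on GRCm38.p6. Capitals mark matches, on either strand, to an NF-κB motif (GGG, any 2 bases, TT, any base, CC) or to an interferon-stimulated response element, ISRE (GAAA, any 2 bases, GAAA). Cxcl2, at chr5:90903649-90903898 (plus strand), rose without the receptor and holds 2 NF-κB matches, at 97 to 88 and 78 to 69 bases before the start. Cxcl10, at chr5:92348890-92349139 (minus strand), was transient and holds 1 match of each kind, the ISRE at 213 to 204 and the NF-κB motif at 103 to 94. Ifit1, at chr19:34640639-34640888 (plus strand), stayed level and holds 2 ISRE matches, at 104 to 95 and 85 to 76, and 1 NF-κB match at 159 to 150. Rsad2, at chr12:26456453-26456702 (minus strand), was lower at 8 h and holds 1 ISRE match at 120 to 111.
Cxcl2: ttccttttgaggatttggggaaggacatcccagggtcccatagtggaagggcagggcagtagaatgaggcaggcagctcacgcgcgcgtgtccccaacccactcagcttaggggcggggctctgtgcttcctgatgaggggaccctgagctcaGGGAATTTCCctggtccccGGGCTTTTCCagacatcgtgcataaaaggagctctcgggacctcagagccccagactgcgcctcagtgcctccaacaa
Cxcl10: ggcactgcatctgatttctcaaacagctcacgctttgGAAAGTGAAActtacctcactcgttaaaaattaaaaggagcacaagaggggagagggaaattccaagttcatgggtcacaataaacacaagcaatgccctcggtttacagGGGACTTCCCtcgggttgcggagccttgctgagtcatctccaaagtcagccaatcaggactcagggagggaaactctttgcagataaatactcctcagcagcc
Ifit1: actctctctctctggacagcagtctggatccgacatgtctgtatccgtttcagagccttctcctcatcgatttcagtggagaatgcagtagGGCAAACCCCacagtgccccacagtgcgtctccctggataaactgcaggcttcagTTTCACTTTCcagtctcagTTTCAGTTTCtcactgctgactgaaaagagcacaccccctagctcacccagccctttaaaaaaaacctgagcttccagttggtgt
Rsad2: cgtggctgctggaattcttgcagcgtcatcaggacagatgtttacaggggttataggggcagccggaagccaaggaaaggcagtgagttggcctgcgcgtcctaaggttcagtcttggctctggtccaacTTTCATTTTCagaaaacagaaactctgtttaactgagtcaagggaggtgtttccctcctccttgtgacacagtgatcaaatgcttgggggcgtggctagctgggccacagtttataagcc

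The same motifs were counted over the lists. The 2 motifs were counted separately, and no match in the 4 windows overlaps another. The NF-κB motif was found in 1350 of all 32851 promoters of the table (4.11%) and the ISRE in 978 (2.98%). Of the 12297 genes tested, 9147 matched a promoter, and 531 of these (5.81%) held the NF-κB motif and 309 (3.38%) the ISRE. The NF-κB motif was in 6 of 10 chemokine promoters (60%), 6 of 16 of the NF-κB feedback genes (37.5%) and 4 of 18 of the inflammatory cytokines (22.2%). It was in 2 of 41 promoters of the antiviral genes (4.88%), where the ISRE was in 15 (36.6%), and the ISRE was in 9 of 10 promoters of the guanylate-binding and immunity-related GTPases (90%). Of 14 IL-4-responsive genes with a promoter none held either. Over all genes at least 2-fold higher at 8 h without the receptor, 36 of 368 promoters held the NF-κB motif (9.78%) and 21 the ISRE (5.71%), and over those lower the counts were 19 of 544 (3.49%) and 22 (4.04%). A match is a run of letters, not a shown binding site.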

How the data were processed

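Whole-transcriptome mRNA libraries of 8 mouse dendritic cell samples were read from 1 table. Per the labels' protocols, a KAPA stranded kit was used on 1 µg of RNA, with single-end reads of 50 bp. The submitters' processing notes name cutadapt, edgeR and mm10. Aligner, counter, annotation and strand setting: not given in the sources used here. Overlapping, antisense and near-identical genes may therefore share reads. The deposited signal is CPM + 1. This was tested on the file: less 1, each column has the same sum, and 100% are whole reads within 0.01 read. This 1 was subtracted, and reads were worked back from the step of each column. Of 27178 rows, 2161 carry no gene name (0.0737% to 0.131% of reads) and 11 names are on more than 1 row. These rows were not named. Of 25006 names, 23470 matched GENCODE M21, which gave coordinates. The table's 16 columns of other samples were not used.

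A gene was tested where 2 or more of the 8 libraries reached 1 CPM (12297 genes). Changes are of log2(CPM + 1), which understates the change of low genes. Ratios of CPM have exact 95% intervals. With 1 library a group, no test was made of a single fold. In limma 3.58.1 (R 4.3.3, eBayes with trend, Benjamini-Hochberg threshold 0.05), the 8 h effect came from a fit of all 8 libraries with genotype and condition as additive terms (3 residual degrees of freedom), and the late genotype difference from that model with a late-by-genotype term (2 residual degrees of freedom). Both were tested on simulated data. The members and the gene lists were chosen with earlier results of these data known. Genes were named by a fixed rule: the 15 highest and 15 lowest at 8 h, fewer at 1 h and 3 h and from each time class, the 4 smallest p-values of the late difference, up to 6 of the largest changes in a list, and members described for their role. A gene that this rule names among the lowest at 8 h is not reported here. Promoters came from the RefSeq table (GRCm38.p6), matched by symbol. Alternatives were the pseudocount, the filter, the scaling, the depth, limma-voom and leaving out each library.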

Additional observations from a re-analysis of the deposited data

Results flagged for a closer look

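10 genes changed at least 2-fold at 8 h in opposite directions in the 2 genotypes, each from single libraries, so the opposition itself was not tested at 8 h. The late difference over 3 h and 8 h called none of them. Of the 10, 9 were lower without the receptor and higher with it. On the log2 scale Cmpk2, a nucleotide kinase beside Rsad2, changed by -2.81 without the receptor and 5.62 with it, Rsad2 by -1.35 and 6.68, and Oas3, an RNA sensor, by -1.60 and 3.98. Irf7, the regulator of interferon-α genes, changed by -1.23 and 4.90, Rtp4 by -1.24 and 4.14, Slfn1 by -1.14 and 4.18, and Iigp1, a vacuole GTPase, by -1.30 and 3.18. Fcgr1, the high-affinity Fc receptor for IgG, changed by -2.23 and 1.03, and Gm12185 by -1.12 and 1.75. The last, Bcl2a1c, was the reverse at 1.08 and -1.28, from 12 reads in each IFNAR;RelB-DBDB library compared and 0 reads in the RelB-DBDB 8 h library, and its name is one of a family of near-identical copies.

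Several of the 9 ended on few reads without the receptor. Cmpk2 stood at 13.5, 15.1, 4.55 and 1.08 CPM, lower at 3 h than at 1 h and lower again at 8 h, where it had 4 reads. Fcgr1 stood at 10.0, 10.6, 4.37 and 1.35 CPM (5 reads at 8 h), and Irf7 at 7.01, 7.05, 4.37 and 2.42 CPM. Oas3 stood at 32.3, 31.9, 16.9 and 9.97 CPM, a lower level read on more counts. The counting intervals of the ratio of control to 8 h were 4.81 to 46.6 for Cmpk2, 3.10 to 23.3 for Fcgr1, 1.45 to 6.54 for Irf7 and 2.31 to 4.67 for Oas3.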

How the results depend on the processing

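Thinning all libraries to the shallowest gave 137 higher and 126 lower at 1 h, where the counts were 65 and 15. With a pseudocount of 5 CPM in place of 1, the counts were 316 higher and 330 lower at 8 h, 227 and 173 at 3 h, and 7 lower at 1 h, where 0.5 CPM gave 36 lower. Median-ratio scaling gave 312 lower at 3 h. The 8 h effect in limma was called for 2654 genes, for 1629 with no filter on low values, for 4316 with limma-voom (chosen after seeing the data), and for 336 to 7056 with 1 library left out. The lowest count belonged to the fit that left out the RelB-DBDB control and the highest to that without 8 h of IFNAR;RelB-DBDB. The others were 622 (IFNAR;RelB-DBDB control left out), 1646 (each 1 h library), 1287 and 1293 (3 h libraries) and 3228 (8 h of RelB-DBDB). The late genotype difference called 0 genes, and 69 to 5641 with 1 library left out. The cause was not tested, beyond the fewer libraries in each such fit. Of the 149 genes named, 105 had a called 8 h effect, and all 105 kept its direction in every fit. With all libraries kept, the call ended in at least 1 setting for 11 of them: Actb, Ccl1, Ccl22, Ccl24, Clec7a, Gapdh, Gbp2, Isg15, Nfkb2, Serpinb2 and Slfn5. With 1 library left out it ended in at least 1 fit for 32: 73 calls were kept without the RelB-DBDB control, 83 without that of IFNAR;RelB-DBDB, 95 without either 3 h library and 104 without either at 8 h. The 32 are those above other than Ccl22 and also Batf, Bcl2l1, Cd86, Cflar, Cxcr4, Dennd3, Dusp1, Fcgr2b, Gm14446, Gm8113, H2-Ob, Ifnb1, Il10, Il12a, Ltb4r1, Map3k8, Ms4a4c, Nlrp3, Pou4f1, Ripk3, Sept3 and Tgm2, each of them lost without the RelB-DBDB control, the IFNAR;RelB-DBDB control or both. Among named genes not called, Ifnar2, Xaf1, Zfp36 and H2-Ab1 changed sign under median-ratio scaling, from changes of at most 0.12 in size. The planned count test in edgeR was not run, and limma-voom was run on the reads worked back. No paired analysis was possible because each group has 1 library and no replicate number pairs them; genotype is a term of the 8 h fit. Depth limits the low genes: 3 reads were 0.808 CPM at 8 h, so genes near 1 CPM there rest on a few reads.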

Other observations

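Genes of cell survival and death passed 2-fold more often upward than downward at 8 h in the cells without the receptor. Of 25 tested, 8 were at least 2-fold higher at 8 h and 1 lower, beside 4.24% and 6.23% over all genes. Bcl2l1, which encodes the survival protein BCL-XL, stood at 100.3, 108, 454 and 252 CPM, with its peak at 3 h, and rose (adjusted p = 0.01 by limma). Cflar, an inhibitor of caspase-8, stood at 236, 342, 634 and 543 CPM and rose (adjusted p = 0.0079). Nlrp3, the inflammasome sensor, stood at 49.0, 85.3, 180.3 and 109.9 CPM and rose (adjusted p = 0.018). Ripk3, the kinase of necroptosis, was the lower one and fell from 52.6 to 24.8 CPM (adjusted p = 0.0048).

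Checks on interleukin-1 moved both ways. Il1rn, the receptor antagonist gene, stood at 34.3, 45.9, 155 and 306 CPM and rose 8.90-fold (7.95 to 9.99, adjusted p = 0.00026 by limma). Il1r2, the decoy receptor gene, stood at 45.6, 56.3, 36.1 and 9.43 CPM and fell 4.83-fold (3.43 to 7.01, adjusted p = 0.00036). Il10 was low throughout, at 0.584 CPM in control and 2.69 CPM at 8 h. It rose (adjusted p = 0.029 by limma, a call that ended when either genotype's control library was left out). Of 12 anti-inflammatory genes 3 were at least 2-fold higher and 1 lower at 8 h. For this list and those below, the shares over all genes at 8 h were 4.24% higher and 6.23% lower. A count of 1 lower gene is near that share. Of 24 lectin, scavenger and Fc receptor genes, 9 were higher and 7 lower. Fcgr2b, the inhibitory Fc receptor, fell from 114 to 56.6 CPM (adjusted p = 0.013), and Clec7a, which encodes dectin-1, fell from 488 to 220.1 CPM (adjusted p = 0.02, up to 0.13 under TMM or median-ratio scaling). Of 14 chemoattractant receptors 5 were higher and 4 lower, and Cxcr4, the bone marrow retention receptor, stood at 67.5, 80.7, 22.8 and 31.0 CPM and fell (adjusted p = 0.011). Of 15 MAP kinase phosphatase and mRNA decay genes, 6 were higher at 1 h, beside 0.529% over all genes. At 8 h 4 of them were higher and 1 lower. Of 12 interferon signalling genes none passed 2-fold at 8 h.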
